A study of Homo sapiens with 4 samples.

Results

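Long noncoding RNAs linked to prostate cancer were followed in LNCaP95 cells with and without the gene UGT2B17. The 10 members, PCA3, PCGEM1, PCAT1, PCAT14, SCHLAP1, DRAIC, ARLNC1, NEAT1, MALAT1 and H19, were chosen by name and were all found by symbol among the 60880 genes counted, 14563 of which are annotated as long noncoding RNA (lncRNA) genes. LNCaP95 is an androgen-independent derivative of the LNCaP line, which came from a lymph node metastasis of prostate cancer. UGT2B17 encodes an enzyme that attaches glucuronic acid to androgens, and LN95(KO) cells are LNCaP95 cells in which that gene was disrupted by CRISPR. RNA-Seq libraries numbered 2 for LNCaP95 (replicates 1 and 2) and 2 for LN95(KO) (replicates 3 and 4). Both groups were kept in charcoal-stripped serum, which is low in steroids, and neither received a treatment. For the cell line, every label reads LN95, whereas the series text speaks of LNCaP for the knockout, and how many knockout clones were used is not stated. Nothing states that the libraries of a group came from separate cultures, so p-values measure the spread between these libraries, which may be technical.

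An lncRNA is a transcript that is spliced or processed like other RNAs but has no long reading frame, and many lncRNAs act in the nucleus. NEAT1 is the RNA scaffold of paraspeckles, bodies built around its long isoform, while MALAT1 collects in nuclear speckles, where splicing factors are stored. PCA3, PCAT1, PCAT14, SCHLAP1, PCGEM1, DRAIC and ARLNC1 are known for their restricted expression in prostate tissue or prostate tumours, and several of them respond to androgen. H19 is an imprinted fetal transcript that also carries a microRNA.

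MALAT1 and the long form of NEAT1 lack a usual poly(A) tail, which bears on these libraries because RNA was captured with oligo(dT). Their 3′ ends are cut by RNase P, and U-rich stretches then fold around an A-rich tract at the very end. In GRCh37 these ends lie at chr11:65273478-65273587 for MALAT1 and at chr11:65212902-65213011 for NEAT1, both on the plus strand. The sequences are shown, as genomic DNA from the GRCh37 reference and 110 bases each, since a genome-encoded A tract is one place where oligo(dT) can meet both RNAs. Capitals mark the 2 T-rich runs and the A-rich tract that a pattern search found in each.
MALAT1 end: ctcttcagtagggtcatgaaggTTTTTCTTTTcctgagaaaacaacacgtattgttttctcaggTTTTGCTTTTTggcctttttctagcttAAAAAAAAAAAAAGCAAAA
NEAT1 long form end: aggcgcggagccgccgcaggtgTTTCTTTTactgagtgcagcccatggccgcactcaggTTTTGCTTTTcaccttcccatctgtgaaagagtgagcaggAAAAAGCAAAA
The A-rich tract of NEAT1 is at the last base of the annotated transcript, and that of MALAT1 lies 1957 bases inside the annotated end. The short form of NEAT1 is polyadenylated instead. The annotated short isoforms NEAT1-208 and NEAT1-209 share their last 60 bases, chr11:65193925-65193984 on the plus strand of GRCh37. These bases carry the signal AATAAA, in capitals, 5 bases before the end. The other annotated short isoforms hold no AATAAA in their last 60 bases.
NEAT1 short form end: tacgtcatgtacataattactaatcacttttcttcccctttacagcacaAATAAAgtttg
Counts were summed over the whole gene, so the short and long forms of NEAT1 could not be told apart.

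The libraries held 17330338 to 18813193 reads on genes. UGT2B17 had 2788 and 2748 counts in LNCaP95 against 21 and 20 in LN95(KO), which is -7.04 as a log2 fold change (SE 0.10, adjusted p = 1.18e-18 with edgeR's quasi-likelihood test) and in the direction of the labels. Markers of luminal prostate cells were high in every library, all 7 of 7 being tested, with 2205 to 14233 counts of the keratins KRT8 and KRT18. PTPRC, CD3E and CD68, which mark immune cells, had at most 1 count. Of 3 basal markers only KRT14 was tested and was called higher, with 1 and 2 counts against 17 and 20. KRT14 passed the filter on low counts only through its LN95(KO) libraries, so that call is no support for a direction. The summed basal list stayed at 0.163 to 1.26 CPM (counts per megaread of TMM-scaled library size). Among neuroendocrine markers SYP had 42 to 45 counts and CHGA had 0. Of 5 stromal markers LUM was called lower, with 24 and 19 counts against 0 and 0. LUM passed the filter only through its LNCaP95 libraries, so its call is no support for a direction either. DCN had 0 counts, and the stromal sum ran from 30.2 to 35.7 CPM. The part of these markers in the lncRNA values was not tested. Over all genes, 2811 of 15626 tested were called at an adjusted p under 0.05 and a fold over 2. That background is 18.0%, with 8.86% called higher and 9.13% called lower in LN95(KO).

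Of the 10 lncRNAs, 8 passed the filter on low counts and 2 were called, SCHLAP1 lower and ARLNC1 higher in LN95(KO), beside the 18.0% of all genes, 17.0% of protein-coding genes and 25.2% of the 1826 lncRNA genes tested. Among those lncRNA genes 10.1% were called higher and 15.1% lower. The share among the members is near that background and is no result about them as a group. At any fold, 3 of the 8 had an adjusted p under 0.05, the third being NEAT1, where 59.8% of all genes and 45.3% of lncRNA genes did. The libraries of the groups did not overlap for 6 of the 8, against 79.8% of all genes and 72.2% of lncRNA genes. The median log2 fold change of the 8 was -0.16, compared with -0.01 over all genes and -0.18 over lncRNA genes. ARLNC1 reached the filter only through its LN95(KO) libraries. PCAT14 and PCGEM1 were not tested.

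**Figure D1:**
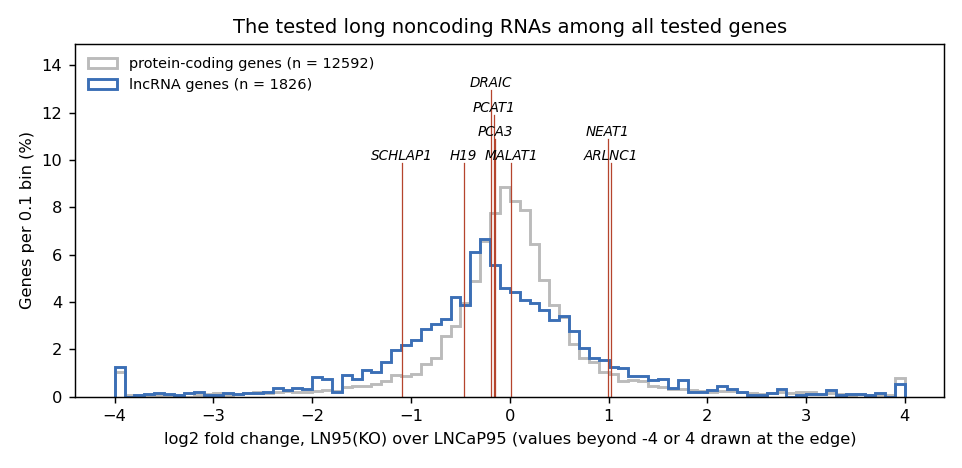
The grey and blue outlines give, for each bin of log2 fold change of LN95(KO) over LNCaP95 (x axis, log2 units), the percent of tested protein-coding genes (n = 12592) and lncRNA genes (n = 1826) in it (y axis), and red lines mark the 8 tested members. SCHLAP1 at -1.09 and NEAT1 and ARLNC1 at 0.99 and 1.02 stand in the shoulders of the lncRNA distribution and the other 5 members near its centre.

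NEAT1 was roughly doubled in LN95(KO) while MALAT1, its neighbour on chromosome 11, was not detectably altered. NEAT1 (ENSG00000245532.8_4) is annotated as a single exon block of 22767 bases, chr11:65190245-65213011 on the plus strand of GRCh37. It had 3637 and 4144 counts in LNCaP95 and 7953 and 7154 counts in LN95(KO). Both LN95(KO) libraries lay above both LNCaP95 libraries. Scaled to library size, the level was 212 ± 20.7 CPM (SD, n = 2) in LNCaP95 and 421 ± 40.5 CPM (SD, n = 2) in LN95(KO). The log2 fold change was 0.99 (SE 0.07, 95% interval 0.83 to 1.16, edgeR quasi-likelihood test, adjusted p = 2.85e-07), a fold of 1.99 that falls just short of the 2-fold criterion. NEAT1 was therefore not called, although the difference was well beyond the spread between libraries. In bulk samples, fewer cells with an RNA and less RNA per cell cannot be told apart, which holds for each lncRNA here. It crossed 2-fold at 1.05 with library totals in place of TMM factors, at 1.09 without LNCaP95 replicate 2 and at 1.09 without LN95(KO) replicate 4.

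MALAT1 (ENSG00000251562.8_3), also annotated as a single exon block, spans 10434 bases at chr11:65265111-65275544 on the plus strand. It had 37511 and 44659 counts in LNCaP95 and 41804 and 39184 counts in LN95(KO), so the groups overlapped. The log2 fold change was 0.01 (SE 0.08, 95% interval -0.18 to 0.20, edgeR adjusted p = 0.91), and its sign turned with the scaling and with the library left out. Within each library, NEAT1 counts equalled 9.696% and 9.279% of MALAT1 counts in LNCaP95 against 19.02% and 18.26% in LN95(KO). This ratio does not depend on library scaling, and both LN95(KO) values lie above both LNCaP95 values. MALAT1 and NEAT1 both had their higher CPM in LNCaP95 replicate 2 and in LN95(KO) replicate 3. The share of reads on no annotated feature ran in the same order, at 3.81% and 4.06% in LNCaP95 against 4.03% and 3.86% in LN95(KO), and its part in the spread between replicates was not tested. An antisense gene over MALAT1, TALAM1, shares 8121 exon bases with it but was not in the table that was counted, and strand was not used, so its reads would count as MALAT1.

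By abundance these RNAs stood apart from the other members. MALAT1 held 15.1% and 17.5% of all reads on lncRNA genes in LNCaP95 against 18.3% and 17.1% in LN95(KO), and NEAT1 1.46% and 1.62% against 3.47% and 3.12%. Per kilobase of annotated exon bases, MALAT1 ranked 1 and NEAT1 ranked 36 among 14563 lncRNA genes by mean CPM over the 4 libraries. SCHLAP1 ranked 214, PCAT1 725, H19 1397, DRAIC 2339, ARLNC1 3431, PCAT14 3462 and PCA3 4003 on that scale, where 6816 lncRNA genes had any read. The mean level per kilobase of exon bases in LNCaP95 was 214 CPM for MALAT1, 9.30 for NEAT1, 5.55 for SCHLAP1 and 1.39 for PCAT1. The lengths assumed matter, since PCAT1 has 18491 annotated exon bases but a principal transcript of 906. Per kilobase of that transcript PCAT1 stood at 28.3 CPM in LNCaP95, above NEAT1 at 9.31 and SCHLAP1 at 5.55. ARLNC1, PCAT14 and PCA3, the lowest members with reads, had 0.0648, 0.0609 and 0.0652 CPM per kilobase of exon bases in LNCaP95. Their order was not resolved at counts of 5 to 17 per library.

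**Figure D2:**
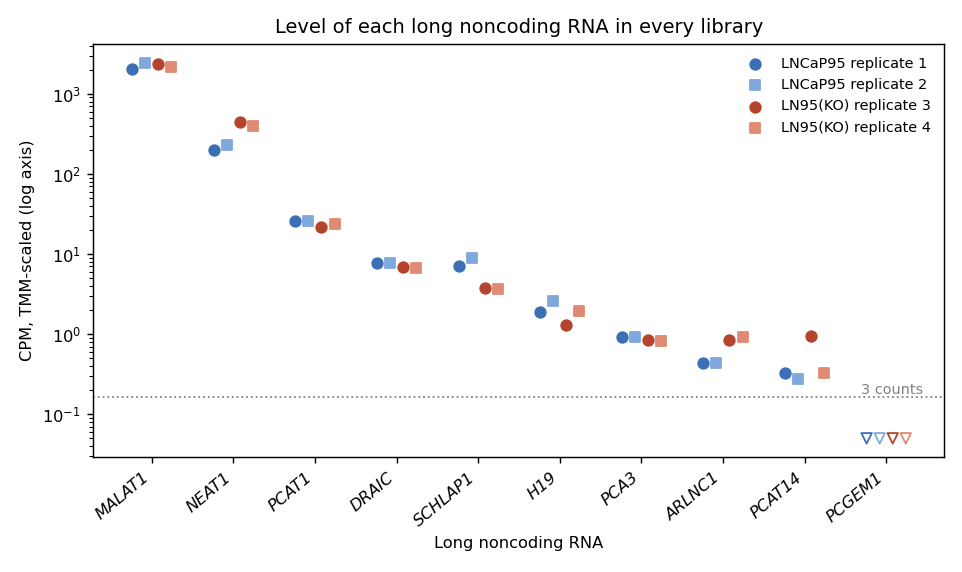
Each point is the level of one lncRNA in one library as TMM-scaled CPM (log axis), with LNCaP95 in blue and LN95(KO) in red, and open triangles at the bottom mark a count of 0. The members span from over 2000 CPM for MALAT1 to 0 for PCGEM1, the blue and red points of NEAT1, SCHLAP1 and ARLNC1 are separate, and those of MALAT1 and H19 overlap. The dotted line is the level of 3 counts in the largest library.

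Around these nuclear RNAs, messages for paraspeckle and speckle proteins differed by less than 2-fold. Of 16 paraspeckle proteins 0 were called by edgeR and 0 by DESeq2. Over all 15626 genes tested, edgeR called 18.0% and DESeq2 called 2358. The number with an unadjusted p under 0.05 in edgeR was 14, where 63.4% of all genes had one. With the adjusted p alone and no fold criterion, which 59.8% of all genes passed, 7 were higher and 7 were lower, and the median log2 fold change was -0.04. They ranged from HNRNPH3 at -0.34 (adjusted p = 6.57e-05) to DAZAP1 at 0.92 (adjusted p = 1.23e-10), and RBM14 differed least at -0.02 (adjusted p = 0.765). NONO and SFPQ, named after their values were seen, stood on opposite sides of 0. NONO, a core paraspeckle protein that binds NEAT1, had 6553 and 6481 counts against 7032 and 7396, with a log2 fold change of 0.18 (edgeR adjusted p = 2.71e-03). SFPQ, its binding partner, had 4973 and 4857 counts against 3777 and 4075, with a log2 fold change of -0.29 (edgeR adjusted p = 5.28e-05).

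Of 15 nuclear speckle proteins 0 were called by edgeR or by DESeq2, beside 18.0% of all genes called by edgeR and 2358 of 15626 by DESeq2. The number with an unadjusted p under 0.05 in edgeR was 6, where 63.4% of all genes had one. The log2 fold changes ran from -0.16 for SRRM2 to 0.26 for SRSF1, with SRSF3 the least altered at -0.0024. No list of proteins here was tested as a set. Another list held 14 tested genes for factors that cut or modify the ends of NEAT1 and MALAT1, including the subunits of RNase P. Of these, 0 were called by edgeR or by DESeq2 and 6 had an unadjusted p under 0.05 in edgeR, beside the same shares of all genes. They lay between -0.29 for METTL16, which binds the MALAT1 triple helix, and 0.70 for POP1, the large protein subunit of RNase P. RPP14 differed least in this list, at 0.02. RPP21 had 0 counts in all libraries, which can miss reads that overlapped several genes, since these were counted for none of them. FRMD8, the nearest protein-coding gene before NEAT1, had a log2 fold change of 0.36 (adjusted p = 1.06e-03), smaller than that of NEAT1.

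SCHLAP1, an lncRNA of aggressive prostate cancer that is reported to hinder the SWI/SNF chromatin remodelling complex, was lower in LN95(KO). The gene (ENSG00000281131.1_2) has 5 exons with 1436 bases in all, at chr2:181556831-181781666 on the plus strand. It had 129 and 164 counts in LNCaP95 and 67 and 67 counts in LN95(KO). Both LN95(KO) libraries lay below both LNCaP95 libraries, and LNCaP95 replicate 2 was the highest. The level fell from 7.97 ± 1.39 CPM (SD, n = 2) to 3.73 ± 0.0806 CPM (SD, n = 2). The log2 fold change was -1.09 (SE 0.17, 95% interval -1.45 to -0.74, edgeR adjusted p = 2.77e-05), which is 2.14-fold lower. Without LNCaP95 replicate 2 it was -0.91 (edgeR adjusted p = 2.72e-04) and no longer called. No member was called when edgeR tested against a 2-fold change (glmTreat), and SCHLAP1 was called under every other setting run.

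An antisense lncRNA, ENSG00000225258, shares 14.8% of the exon bases of SCHLAP1, and reads that fell on both genes could not be assigned to either. That antisense gene had 11 and 9 counts against 7 and 5. SCHLAP1 also has repeated sequence, with 13.8% of its 50-base windows and 0 of its 100-base windows found elsewhere in the genome, so that short reads can be lost there. UBE2E3, the ubiquitin-conjugating enzyme gene 50308 bases beyond SCHLAP1, had 435 and 419 counts in LNCaP95 and 250 and 274 counts in LN95(KO). Its log2 fold change was -0.67 (SE 0.09, edgeR adjusted p = 7.92e-06), in the direction of SCHLAP1 but under 2-fold. CWC22, the nearest protein-coding gene on the other side at 684806 bases, was at 0.03 (adjusted p = 0.747). A ferritin pseudogene inside the SCHLAP1 body, FTH1P20, was at -0.43 (adjusted p = 1.86e-04), and a pseudogene can exchange reads with its parent gene. SMARCB1, the SWI/SNF subunit that SCHLAP1 is reported to bind, had 1337 and 1422 counts against 1212 and 1257, a log2 fold change of -0.13 (adjusted p = 0.0738).

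ARLNC1, an androgen-induced lncRNA, was scarce in both groups. The gene (ENSG00000260896.5_4) lies on the minus strand at chr16:80859971-80926579. It had 8 and 8 counts in LNCaP95 and 15 and 17 counts in LN95(KO), so the groups did not overlap. Its level was 0.435 ± 0.00236 CPM (SD, n = 2) in LNCaP95 and 0.890 ± 0.0594 CPM (SD, n = 2) in LN95(KO). The log2 fold change was 1.02 (SE 0.42, 95% interval 0.14 to 1.90, edgeR adjusted p = 0.0437), so that ARLNC1 only just met both criteria. The call was lost under DESeq2 at an adjusted p of 0.289, with upper-quartile factors, with no filter on low counts and with any single library left out, where the adjusted p ran from 0.139 to 0.206. The pooled ratio of scaled counts was 2.05, with a 95% interval of 1.09 to 3.99 that covers counting error only.

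The genes on either side of ARLNC1 were both higher in LN95(KO) by less than 2-fold. CMC2, which encodes a mitochondrial protein of respiratory chain assembly, was at 0.80 (adjusted p = 2.28e-05), and CDYL2, which encodes a chromodomain protein, was at 0.41 (adjusted p = 1.44e-04). A later annotation places a protein-coding readthrough gene, ENSG00000286221, over 33.7% of the exon bases of ARLNC1, and it was not in the table that was counted.

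**Figure D3:**
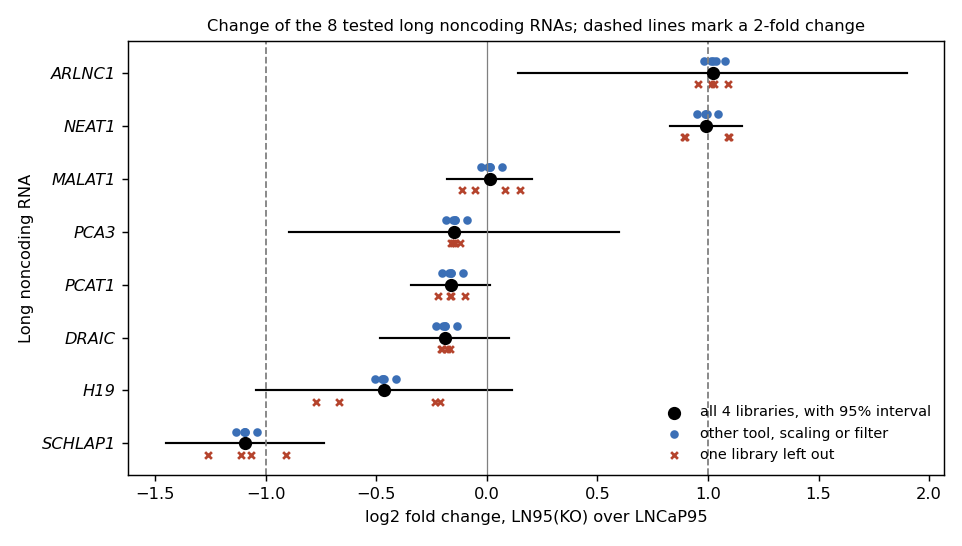
Black points are the log2 fold changes of LN95(KO) over LNCaP95 (x axis) of the 8 tested lncRNAs with 95% intervals from edgeR, blue points the same value under another tool, scaling or filter, and red crosses with one library left out. The interval of ARLNC1 is wide, from 0.14 to 1.90, that of NEAT1 is narrow and straddles the 2-fold line, and the left-out libraries move H19 between -0.77 and -0.21.

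The other lncRNAs of prostate specificity differed little or were too scarce to judge. PCAT1 (ENSG00000253438.3_3), which is reported to repress BRCA2, lies in the gene-poor interval between TRIB1 and MYC on chromosome 8. It had 472 and 471 counts in LNCaP95 and 388 and 435 counts in LN95(KO). The LN95(KO) libraries were lower without overlap, but the log2 fold change of -0.16 (SE 0.08, 95% interval -0.34 to 0.01) had an adjusted p of 0.105 with edgeR. Over the alternatives it stayed below 0, from -0.22 to -0.10, and its adjusted p ran from 0.0466 to 0.348. BRCA2, the homologous recombination gene, had 46 and 44 counts against 293 and 331, a log2 fold change of 2.82 (SE 0.15, edgeR adjusted p = 2.34e-11). The paper reports genes of the DNA damage response among those altered by the knockout, and a part of PCAT1 in the BRCA2 value was not tested.

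Several genes lie inside the wide PCAT1 locus as annotated, and their differences went both ways. CASC8, an lncRNA on the opposite strand, had 31 and 18 counts against 59 and 61 and was called higher, with a log2 fold change of 1.32 (SE 0.26, edgeR adjusted p = 2.97e-04). Without LNCaP95 replicate 2 it was 0.99 and not called, and without LNCaP95 replicate 1 it was 1.76. POU5F1B, a retrogene of the OCT4 family that can share reads with its relatives, had 19 and 13 counts against 26 and 39 and was called higher at 1.05 (edgeR adjusted p = 0.0107). That call was lost under DESeq2 (adjusted p = 0.118), without LNCaP95 replicate 2 (0.81) and without LN95(KO) replicate 4 (0.75). LRATD2 was at -0.22 (adjusted p = 1.58e-03) and CASC19 at 0.83 (adjusted p = 0.233), with 2 and 10 counts against 10 and 11. Of the flanking genes, TRIB1, a pseudokinase gene, was at -0.73 (adjusted p = 2.65e-06), while MYC, the proto-oncogene, had 7547 and 7675 counts against 7207 and 7519 and stood at -0.02 (adjusted p = 0.79), with a sign that turned under library totals.

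DRAIC (ENSG00000245750.8_3), which is reported to bind the IκB kinase complex, had 142 and 143 counts in LNCaP95 against 122 and 122 in LN95(KO). The groups did not overlap, yet the log2 fold change of -0.19 (SE 0.14, 95% interval -0.48 to 0.10) did not pass the test at an adjusted p of 0.249 with edgeR. Messages for the kinase subunits that DRAIC is reported to bind were at 0.03 for CHUK (adjusted p = 0.78), 0.31 for IKBKB (adjusted p = 9.18e-03) and -0.12 for IKBKG (adjusted p = 0.434). The genes that flank DRAIC went opposite ways, with the ribosomal stalk gene RPLP1 at 0.36 (adjusted p = 3.57e-06) and the corepressor gene TLE3 at -0.44 (adjusted p = 7.96e-07).

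PCA3 (ENSG00000225937.2_4), the transcript measured in the urine test for prostate cancer, had 17 and 17 counts in LNCaP95 against 15 and 15 in LN95(KO). The log2 fold change was -0.15 (SE 0.35, edgeR adjusted p = 0.74), and its 95% interval of -0.89 to 0.60 leaves changes of well over 1.5-fold undetectable at this depth. PCA3 lies within PRUNE2 on the opposite strand, and GENCODE release 44, later than the release counted, gives them 7.48% of the exon bases of PCA3 in common. PRUNE2, a tumour suppressor gene that PCA3 is reported to silence through RNA editing by ADAR, had 10075 and 9925 counts against 7933 and 7549, far more reads than PCA3 had. Its log2 fold change was -0.34 (SE 0.05, edgeR adjusted p = 1.49e-05), and ADAR stood at 0.15 (adjusted p = 0.0185). Of PRUNE2 and PCA3, only PRUNE2 passed the test for a difference.

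PCAT14 (ENSG00000280623.1_2), an androgen-responsive lncRNA of chromosome 22, had 6 and 5 counts in LNCaP95 and 17 and 6 counts in LN95(KO). Only LN95(KO) replicate 3 was high, and the lower LN95(KO) count equals the higher LNCaP95 count. It did not pass the filter, and with no filter its log2 fold change was 1.08 (SE 0.56, edgeR adjusted p = 0.14). PCAT14 derives from an endogenous retrovirus, and 15.1% of its 50-base windows, but 0 of its 100-base windows, occur elsewhere in the genome.

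PCGEM1 (ENSG00000227418.6_3), an androgen-regulated lncRNA, had 0 counts in all 4 libraries. A count of 0 allows up to 3 counts, or 0.163 to 0.170 CPM in these libraries, and a level above that was not detected in the oligo(dT) fraction. The nearest protein-coding gene, TMEFF2, lies 554911 bases away on the opposite strand and encodes a membrane protein of prostate and brain. TMEFF2 had 228 and 206 counts in LNCaP95 and 1552 and 1696 counts in LN95(KO), giving a log2 fold change of 2.94 (SE 0.08, edgeR adjusted p = 2.72e-15), while PCGEM1 stayed at 0 in both groups. On its other side SLC39A10, a zinc transporter gene 2799075 bases away, was at 0.29 (adjusted p = 3.00e-03).

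**Figure D4:**
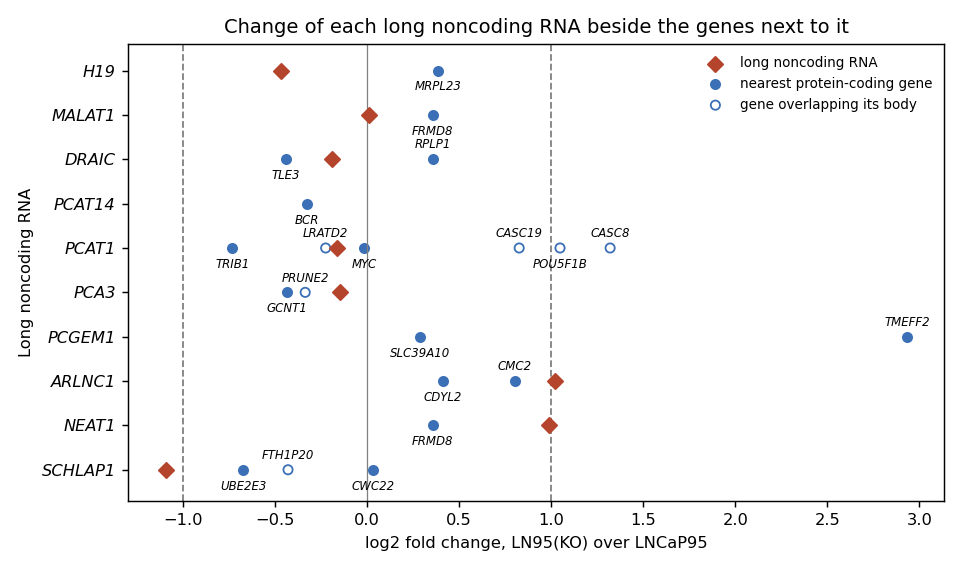
Red diamonds are the log2 fold changes of LN95(KO) over LNCaP95 (x axis) of each tested lncRNA, filled blue circles those of the nearest tested protein-coding genes reported here and open circles those of tested genes inside its body. TMEFF2 beside the undetected PCGEM1 stands at 2.94, UBE2E3 at -0.67 is on the side of SCHLAP1, and the neighbours of the remaining lncRNAs lie within 2-fold apart from CASC8 and POU5F1B.

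H19 (ENSG00000130600.18_4), best known from the imprinted cluster it shares with IGF2, lies on the minus strand at chr11:2016396-2025782. It had 35 and 47 counts in LNCaP95 and 23 and 35 counts in LN95(KO). The groups touched, since 1 library of each had 35 counts. The log2 fold change was -0.47 (SE 0.27, 95% interval -1.05 to 0.11, edgeR adjusted p = 0.155), and it ran from -0.77 to -0.21 as single libraries were left out. H19 hosts a microRNA, which was not measured in these libraries, and both of its mature arms from RefSeq (GRCh38.p14) are shown to identify the product, with the seed at bases 2 to 8 in capitals.
hsa-miR-675-5p: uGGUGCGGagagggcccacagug
hsa-miR-675-3p: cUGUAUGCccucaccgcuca
The arms, at chr11:1996800-1996822 and chr11:1996768-1996787 on the minus strand of GRCh38.p14, have different seeds.

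IGF2, the growth factor gene imprinted in the opposite sense to H19, had 0 counts in all libraries. That 0 can miss reads that overlapped several genes, which were counted for none of them. MRPL23, a mitochondrial ribosomal protein gene on the other side of H19, was at 0.39 (edgeR adjusted p = 7.43e-05). Of the messages for RNA-binding proteins that can bind H19, IGF2BP2 had 4 and 6 counts against 24 and 22 and was called higher, with a log2 fold change of 2.21 (SE 0.43, edgeR adjusted p = 2.94e-04). Like ARLNC1, it reached the filter only through its LN95(KO) libraries. Over all proteins known to act with the members, 26 of 28 were tested and 2 were called, BRCA2 and IGF2BP2, both higher, beside 18.0% of all genes. Their median log2 fold change was 0.14, and 19 had an adjusted p under 0.05 at any fold, beside 59.8% of all genes, with EZH2, the Polycomb methyltransferase, the least altered at -0.01 (adjusted p = 0.892).

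Promoter sequence from 250 bases before to 50 bases after the start was held for 5 of the 10 members, PCGEM1, PCA3, H19, MALAT1 and DRAIC, in 7 windows of the RefSeq table (GRCh38.p14). The window of PCGEM1, chr2:192749595-192749894 on the plus strand, holds 1 half-site of the androgen response element, AGAACA on either strand, and is shown because PCGEM1 is the member without reads, with the half-site in capitals.
PCGEM1 promoter: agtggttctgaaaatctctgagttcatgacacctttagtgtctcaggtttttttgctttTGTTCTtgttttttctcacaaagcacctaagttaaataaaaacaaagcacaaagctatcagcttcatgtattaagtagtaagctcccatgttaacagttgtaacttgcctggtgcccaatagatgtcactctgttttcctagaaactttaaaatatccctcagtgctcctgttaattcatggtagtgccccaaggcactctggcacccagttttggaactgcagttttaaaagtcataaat
The half-site also occurs in the H19 window and in 1 of the 2 MALAT1 windows, and in 14.8% of all 35116 promoters, while the DRAIC window holds none of the motifs searched. PCA3 has the hypoxia response core ACGTG, which 21.4% of all promoters hold. The full androgen response element (AGAACA, any 3 bases, TGTTCT, which contains the half-site), the forkhead motif TGTTTAC and the E box CACGTG, which contains the hypoxia core, found on either strand in 0.00285%, 3.42% and 7.26% of promoters, were in none of the 7 windows.

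A wider list of lncRNAs tied to prostate cancer, 54 symbols of which 48 were found and 27 tested, shows what lies around the members. Of these, 6 were called higher and 1 lower, their median log2 fold change was 0.10, and 12 were higher and 8 lower at an adjusted p under 0.05 and any fold. Beside them stand 18.0% of all genes and 25.2% of lncRNA genes called, and 59.8% and 45.3% past the adjusted p at any fold. Of the 6 higher calls, 3 (POTEF-AS1, CASC11 and PCAT19) reached the filter on low counts only through their LN95(KO) libraries, so the 6 against 1 is no support for a direction. SNHG1, a host gene of small nucleolar RNAs, had 523 and 500 counts in LNCaP95 against 1369 and 1652 in LN95(KO), with a log2 fold change of 1.59 (SE 0.08, edgeR adjusted p = 1.18e-11). SNHG12, another such host gene, was called higher at 1.32 (adjusted p = 3.62e-06). POTEF-AS1, an androgen-responsive antisense transcript, had 2 and 5 counts against 38 and 27, a log2 fold change of 3.20 (SE 0.46, edgeR adjusted p = 1.35e-05). Without LNCaP95 replicate 1 it was 2.70 and without LNCaP95 replicate 2 it was 3.98, called in both cases. It lies against a POTE gene of a near-identical family, so its reads are uncertain.

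CASC11, beside MYC, was called higher at 1.73 (adjusted p = 3.43e-03) with 4 and 10 counts against 17 and 29, and PCAT19 at 1.89 (adjusted p = 7.47e-03) with 2 and 5 against 12 and 14. The CASC11 call was lost without LNCaP95 replicate 1 (1.22) and without LN95(KO) replicate 4 (1.32), and without LNCaP95 replicate 2 the value was 2.52. The PCAT19 call was lost under DESeq2 (adjusted p = 0.105), without LNCaP95 replicate 1 (1.38), and on leaving out LN95(KO) replicate 3 (1.98) or replicate 4 (1.80), and without LNCaP95 replicate 2 the value was 2.66. HAGLR, from the HOXD cluster, was the single call in the direction of SCHLAP1, with 193 and 163 counts against 39 and 61 and a log2 fold change of -1.80 (SE 0.19, edgeR adjusted p = 2.32e-07). LINC00665 differed least, at -0.03 (adjusted p = 0.65). PCAT7, chosen after its values were seen, stood where NEAT1 stands but on the other side, at -0.99 (SE 0.24, adjusted p = 1.89e-03), and was not called.

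**Figure D5:**
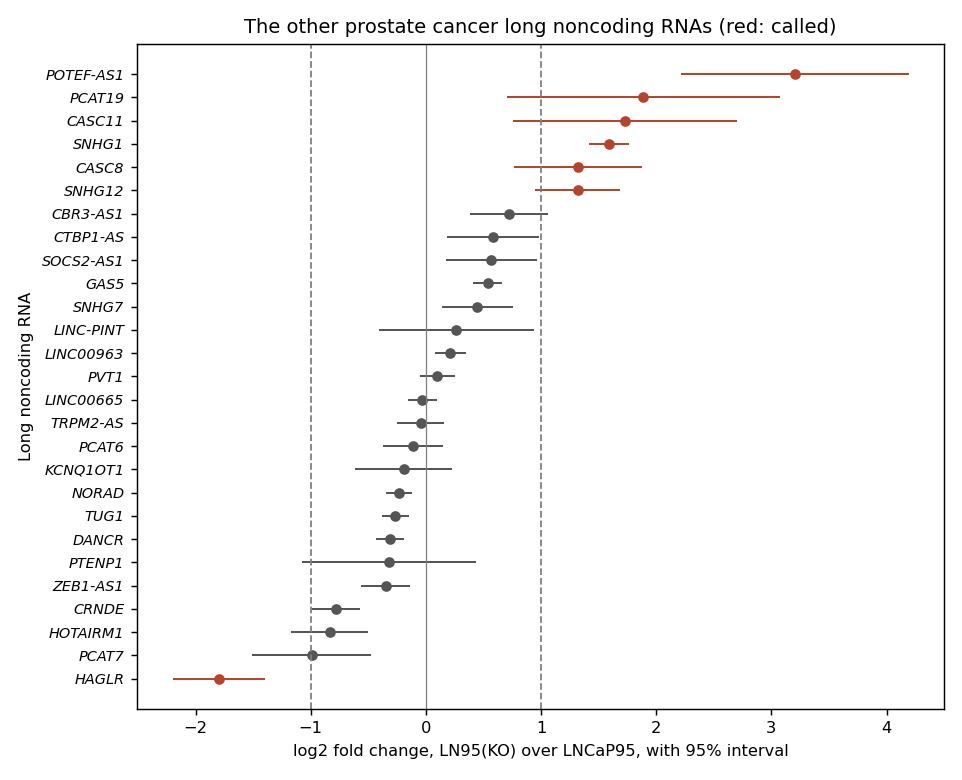
Points are the log2 fold changes of LN95(KO) over LNCaP95 (x axis) of the 27 tested lncRNAs of the wider list, with 95% intervals from edgeR, red where called. The 6 red points on the right run from 1.32 to 3.20, and HAGLR at -1.80 is the only red point on the left, with 3 of the 6 having reached the filter only through LN95(KO).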

How the data were processed

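RNA of 4 libraries was selected with oligo(dT) and sequenced on DNBseq. The deposited values are raw read counts per gene. Per the submitters' processing notes and the study's methods, the authors used HISAT2 (version 2.1.0) for alignment to hg19 and HTSeq for counting on GENCODE release 29, without strand. A read that overlaps several genes is counted for none of them. The sources used here do not give the read length. The series table and the single files differed in 0 cells. Of the gene identifiers, 59859 matched a symbol and 1021 did not. The 5 summary lines of each file, including reads not aligned (3.85% to 8.05%), ambiguous (9.82% to 10.4%) and on no feature (3.81% to 4.06%), stayed out of library sizes and tests.

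Groups came from the labels. Counts were tested with edgeR (version 4.0.16, R 4.3.3; quasi-likelihood, robust, TMM factors, filterByExpr with minimum count 10 and minimum total 15, no covariate), and p-values were adjusted by Benjamini-Hochberg over 15626 genes. A call needs an adjusted p under 0.05 and a fold over 2, as in the study. All fold changes divide LN95(KO) by LNCaP95. No permutation test was used, because 2 libraries a group allow no two-sided p below 0.333. The biological coefficient of variation was 4.27%. Depth was 17330338 to 18813193 gene reads. Intervals on pooled ratios and the limit of 3 counts cover counting error only.

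Coordinates and exon lengths are from GENCODE release 44 on GRCh37, the counted build but a later release, in which some gene models, such as those of PCAT1 and DRAIC, can be wider. Promoters and microRNAs are from RefSeq, and the entries of NEAT1, SCHLAP1, ARLNC1, PCAT1 and PCAT14 were not in the promoter table used here. The fit was tested on simulated data for this comparison (15464 genes), where edgeR called 95.9% of genes altered 4-fold, 2.11% of those altered 1.5-fold and 0.0131% of unaltered genes. The simulation gave all genes the same dispersion and left 15271 of them unaltered, unlike these data, so its rates need not hold here. Alternatives were DESeq2 (version 1.42.0), RLE, upper-quartile and no factors, no filter, no fold criterion, glmTreat against a 2-fold change and leaving out each library.

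Members and gene lists were chosen with earlier results of these data known. Named genes are the members, UGT2B17, genes overlapping a member, the nearest protein-coding gene on each side, called list members and the least altered of a list whose range is given. Some genes under this rule are not reported here. Names outside this rule, such as the partners of a member, were chosen after their values were seen.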

Additional observations from a re-analysis of the deposited data

Results flagged for a closer look

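Reads that could not be aligned lie outside the comparisons of genes, and their share was larger in both LN95(KO) libraries than in both LNCaP95 libraries. The share was 3.85% and 3.96% in LNCaP95 against 8.05% and 7.71% in LN95(KO), of all reads in the files. No member's reads can be looked for in them, since only their number was held. The part of this share in the values of the members was not tested.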

How the results depend on the processing

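Depth limits PCA3, ARLNC1 and PCAT14, which had 5 to 17 counts per library, and PCGEM1, which had none. No paired analysis was possible because replicate numbers 1 and 2 belong to LNCaP95 and 3 and 4 to LN95(KO). Over all genes, 2811 calls became 1687 with glmTreat and 9349 with no fold criterion. Member calls, 2 in the main setting, were 1 under DESeq2, 1 with upper-quartile factors, 1 with no filter and 0 with glmTreat, where 0 had an unadjusted p under 0.05, and 1 to 3 without single libraries. The call of ARLNC1 was lost at 1.03 under DESeq2, 0.98 with upper-quartile factors, 1.02 with no filter and 0.95 to 1.09 without single libraries. SCHLAP1 ran from -1.26 to -0.91 without single libraries, losing its call without LNCaP95 replicate 2. NEAT1 was called at 1.05 with library totals and ran from 0.89 to 1.09 without single libraries. MALAT1 turned to -0.026 with upper-quartile factors and ran from -0.11 to 0.15 without single libraries. MYC turned to 0.0403 with library totals and ran from -0.0328 to 0.0015 without single libraries, and CWC22 turned to -0.0057 with upper-quartile factors. Calls among the other prostate cancer lncRNAs, 7 in the main setting, were 3 with glmTreat and 20 with no fold criterion. With no fold criterion, calls rose from 0 to 14 for paraspeckle proteins, 0 to 5 for nuclear speckle proteins, 0 to 6 for end processing and 2 to 19 for proteins that act with the members. The rises with no fold criterion follow from dropping the 2-fold requirement, and 59.8% of all genes passed that setting. The cause of the other changes was not tested. Other settings moved the median of all genes by at most 0.0554 on the log2 scale. PCA3, PCAT1, DRAIC and H19 kept their direction and were not called in any setting run, although the adjusted p of PCAT1 was 0.0466 with upper-quartile factors. PCAT14 had a value with no filter only.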
